A study of Rattus norvegicus with 33 samples.

Results

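Neonatal estradiol benzoate (EB) was compared with vehicle in the adult rat prostate at postnatal day (PND) 100, on the 3 EB and the 3 control arrays that the sample titles give for that age, 6 of 33 arrays in the series. EB is a long-acting ester of estradiol. Male Sprague-Dawley pups of the EB group received 2.5 mg/kg of it under the skin on PND 1, 3 and 5, and control pups received vehicle on the same days. By the design text, both groups then carried empty implants from PND 90. RNA of each sample was hybridised to 1 single-colour Agilent 8x60K microarray. Sample labels give whole prostate as the tissue and the series title gives the dorsolateral lobes, and the lobes that were sampled remain unclear. The labels give 3 to 4 litters per group and do not tie arrays to litters, so p-values cover only how the samples of the series vary, which may be technical in part. They rest on a spread shared over all 33 arrays in 10 groups, which can be smaller than the spread of the 3 EB arrays. EB 1 is the first replicate of the EB group, and 3 values in a row stand for replicates 1, 2 and 3.

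The prostate is a gland of luminal cells, which secrete seminal proteins under androgen control, resting on basal cells and wrapped in smooth muscle and fibroblasts. Its luminal cells fold, glycosylate and export large amounts of protein, which takes a steady supply of amino acids and charged tRNAs. In rats, estrogen given in the first days of life is known to alter the growth of the gland for good, and the adult gland can later hold infiltrates of T cells, B cells and macrophages.

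A level is the log2 signal of a gene's brightest probe, set so that 0 marks the 75th percentile of that array. A log2 ratio is the EB mean minus the control mean, and 1 equals 2-fold. It is followed by its standard error (SE) and limma's p adjusted over 23296 genes, and a gene was called at an adjusted p under 0.05. Values near -9 are surrogates for spots at background. Where all arrays of 1 group left a gene at background, only a bound on its fold can be had, given as at least N-fold. Levels of different genes cannot be compared on these arrays.

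Of 23296 genes 627 were called, 423 higher and 204 lower with EB, which is 2.69%, 1.82% and 0.876% of all genes. The median log2 ratio of all genes was -0.06, and 5171 genes (22.2%) had an unadjusted p under 0.05. The arrays of the groups did not overlap for 6240 genes (26.8%), 2674 with EB higher (11.5%) and 3566 with EB lower (15.3%). Later counts of list members called, without overlap, or at an unadjusted p under 0.05, are to be read beside these shares of all genes. With so few genes called, a list with 0 or 1 call does not stand apart by that count. Genes higher with EB moved further than genes lower with EB: among the 421 higher genes measured on all 6 arrays the median distance from the control mean was 1.08, 2.41 and 3.28 on EB 1, 2 and 3. Among 203 such lower genes it was -0.67, -0.85 and -1.32. Of the higher genes, 95 were not well above background on any control array, and 7 of the lower genes were not above it on any EB array.

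**Figure D1:**
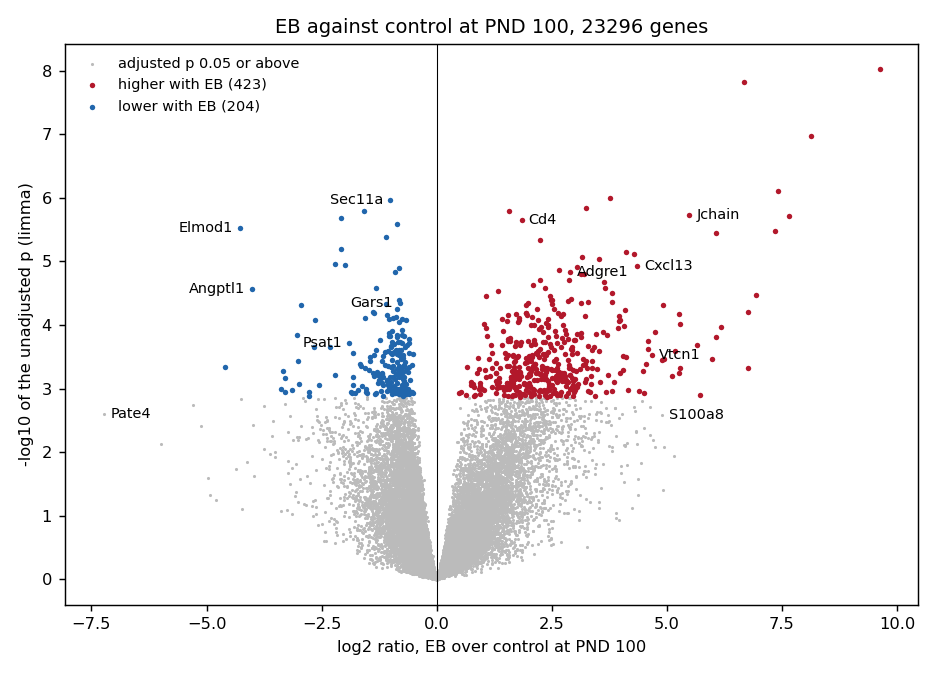
Log2 ratio of EB over control at PND 100 (x axis) against -log10 of limma's unadjusted p (y axis) for 23296 genes, with the 423 genes called higher in red and the 204 called lower in blue. Called genes on the right reach larger log2 ratios than those on the left, Pate4 and S100a8 lie at large ratios without passing, and ratios of genes at background in 1 group are not measured folds.

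The EB arrays differed from each other. EB 3 correlated with the control arrays at 0.898 to 0.906, EB 2 at 0.944 to 0.959 and EB 1 at 0.952 to 0.961, while controls correlated with each other at 0.965 to 0.986. On the first principal component of the 6 arrays, with 49.7% of the variance, EB 3 lay at 165.9, EB 2 at 54.9 and EB 1 at -25.1, against -75.9, -54.8 and -65.0 for the controls. Of the 421 higher genes, EB 3 was the highest EB array for 357 and EB 1 the lowest for 336, and EB 1 lay inside the control range for 36. The median SD of these genes was 1.20 among EB arrays and 0.36 among controls. EB 3 also had the highest 75th percentile of raw signal, 4454 against 2583 and 3040 on the other EB arrays and 2401 to 2799 on controls, and 68.1% of its spots were well above background, against 62.5% to 65.6% on the other 5 arrays. Whether this brightness bears on the results was not tested.

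Single arrays set how many genes were called. Without EB 3 the count was 7 and without EB 2 it was 412, while without EB 1 it was 2704. Without control 1, 2 or 3 it was 29, 171 or 51. The 7 genes called without EB 3 were called in each of the 6 comparisons that left out 1 array. They are the immunoglobulin joining chain Jchain, the signal peptidase subunit Sec11a, LOC108353549 and 4 probes that have no gene name here. Sec11a is the only one of them that fell. Fitted on only these 6 arrays, limma called 0 genes (4113 at an unadjusted p under 0.05). With slide as a block 1601 were called, among them 626 of the 627. Slide 1 held EB 2 with control 3 and slide 2 held EB 3 with control 1.

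**Figure D2:**
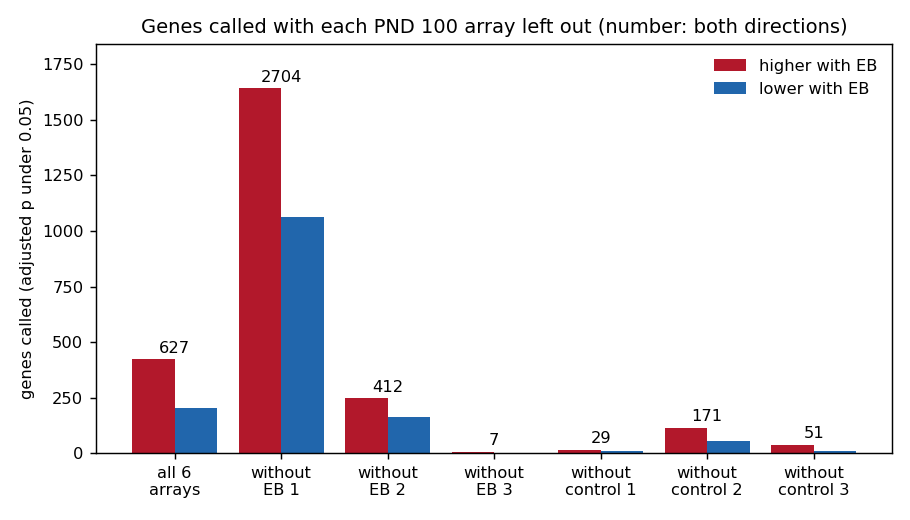
Number of genes called higher (red) and lower (blue) with EB at PND 100 when all 6 arrays are used and when each array is left out in turn, with the sum of both directions above the bars. The sum runs from 7 without EB 3 to 2704 without EB 1, against 627 with all arrays.

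Of 25 measured chemokines, cytokines and receptors that organise lymphoid tissue 6 rose with EB, the B cell attractant Cxcl13 among them. Cxcl13 stood at -1.67, 1.47 and 0.88 on the EB arrays and at -4.89, -4.52 and -2.96 on the control arrays. All 3 EB arrays lay above all controls, EB 2 and EB 3 highest, and the log2 ratio was 4.35 ± 0.81, adjusted p = 0.0101. Ccr6, the receptor of the chemokine Ccl20, stood at -4.84, -1.10 and 0.22 with EB and -5.60, -6.04 and -6.02 in controls (3.98 ± 0.86, adjusted p = 0.0206), so EB 1 was much nearer to the controls than the other EB arrays. The B cell survival factor Tnfsf13b (2.48 ± 0.50, adjusted p = 0.0183, above background on 2 of 3 control arrays), tumour necrosis factor Tnf (3.49 ± 0.88, adjusted p = 0.0363) and the stromal chemokine Cxcl12 (1.72 ± 0.46, adjusted p = 0.0445) rose as well. Ccr7, which guides lymphocytes to lymphoid tissue, was at least 2.10-fold higher (adjusted p = 0.0471, means -6.74 with EB and -9.27 in controls). No gene of this list fell, and its median log2 ratio was 1.72 (1.40 with genes at background in 1 group set at their bounds) against -0.06 for all genes. In whole tissue, more cells of a type and more RNA per cell cannot be told apart, here as for every later group of genes. Ccl19, a ligand of Ccr7, stood at -3.74, -2.53 and 1.62 with EB and -5.68, -5.28 and -4.74 in controls (3.69 ± 1.08, adjusted p = 0.0572), and Ccl21, another ligand, at -1.23, -1.50 and 0.84 with EB and -0.71, -0.61 and -0.03 in controls (-0.18 ± 0.88, adjusted p = 0.930), so neither passed. Without EB 3 the list held 0 calls and without control 1 it held 0, and within slides 1 and 2 its median was 1.28 and 3.34.

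Of 26 measured B cell genes 5 rose with EB and none fell. Spib stood at -5.85, -2.72 and 0.31 on the EB arrays and at -7.96, -7.93 and -6.00 on the control arrays. Spib, a transcription factor of B cells, lay above the controls on all EB arrays, EB 3 by most, and control 3 was the highest control (4.54 ± 1.12, adjusted p = 0.0350, above background on 1 of 3 control arrays). The list had a median of 1.90 (1.43 with bounds), and the list median over the control mean was 0.00, 1.18 and 3.45 on EB 1, 2 and 3. The transcription factor Ebf1 (1.74 ± 0.45, adjusted p = 0.0378) and the tetraspanin Cd37 (2.38 ± 0.62, adjusted p = 0.0390, above background on 1 of 3 control arrays) were among them, and the kinase Blk was at least 5.63-fold higher (adjusted p = 0.0366, means -5.32 with EB and -9.38 in controls). Pax5, the defining factor of the lineage, lay at -0.63 ± 0.38, adjusted p = 0.333. Ms4a1, which encodes CD20, stood at -8.12, -5.32 and -0.28 with EB and -9.38, -9.55 and -7.67 in controls and did not pass (at least 9.48-fold higher, adjusted p = 0.0568). Jchain, which joins antibody units in plasma cells, was called with any array left out. Jchain stood at -1.01, -1.85 and 4.30 on the EB arrays and at -5.05, -5.11 and -4.87 on the control arrays. EB 3 exceeded EB 1 and EB 2 by far, EB 1 and EB 2 still lay above all controls, and the ratio was 5.49 ± 0.90, adjusted p = 0.00401, or 3.58 without EB 3. The plasma cell genes Tnfrsf17 at -8.04, -7.74 and -1.74 with EB and -9.10, -9.28 and -9.18 in controls and Mzb1 at -7.62, -8.06 and -2.47 with EB and -8.77, -9.53 and -8.01 in controls were above background on EB 3 alone and did not pass (adjusted p = 0.0521 and 0.0732). Of 16 plasma cell genes 6 had ratios below 0, among them Derl3 (-1.24 ± 0.62, adjusted p = 0.239) and Xbp1 (-0.34 ± 0.28, adjusted p = 0.501), and the list median was 0.57. The 3 that rose were Jchain, Irf4 (2.66 ± 0.68, adjusted p = 0.0369) and Slamf7 (at least 5.40-fold higher, adjusted p = 0.0376, means -4.95 with EB and -7.59 in controls). Without EB 3, 0 B cell genes and only Jchain of the plasma cell genes were called.

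Of 29 measured T cell genes 8 rose with EB and none fell. Cd4, carried by helper T cells and in rats also by macrophages, had a low standard error. Cd4 stood at -0.75, 0.53 and 0.91 on the EB arrays and at -1.58, -1.54 and -1.74 on the control arrays. Even EB 1 exceeded every control, and the log2 ratio was 1.85 ± 0.31, adjusted p = 0.00402. Zap70, the kinase of the T cell receptor, stood at -3.22, -1.02 and 0.79 with EB and -4.66, -4.33 and -4.04 in controls (3.19 ± 0.61, adjusted p = 0.0109), and Cd247, the zeta chain of that receptor, at -3.34, -0.40 and 1.33 with EB and -4.16, -3.88 and -3.22 in controls (2.95 ± 0.75, adjusted p = 0.0365), with EB 1 above the controls for Zap70 and inside their range for Cd247. Sh2d1a, Cd27, Cd2 and Ccr7 were also among those that rose, and the list median was 2.19 (1.95 with bounds). Cd28 (-0.63 ± 0.56, adjusted p = 0.536) and Lef1 (-0.59 ± 0.56, adjusted p = 0.563) had ratios below 0. The defining gene Cd3e stood at -8.47, -4.90 and -3.52 with EB and -9.15, -7.11 and -7.58 in controls and did not pass (at least 3.82-fold higher, adjusted p = 0.0981), nor did Cd8a of cytotoxic T cells at -6.85, -4.63 and -3.15 with EB and -7.91, -6.67 and -6.56 in controls (2.17 ± 0.94, adjusted p = 0.171, above background on 2 of 3 control arrays). The list median was 0.11, 2.45 and 3.89 above the control mean on EB 1, 2 and 3, against -0.41, -0.03 and 0.49 on the controls. Without EB 3 it held 0 calls at a median of 1.31, without EB 1 it held 24 at a median of 3.15, and within slides 1 and 2 the median was 1.93 and 4.33.

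Of 19 measured receptors and ligands that switch T cells on or off 5 rose (median 1.56, or 1.16 with bounds). The inhibitory ligand Vtcn1 stood at -4.09, -0.59 and -0.82 with EB and -6.74, -6.89 and -5.89 in controls (4.67 ± 1.12, adjusted p = 0.0304), the co-stimulator Icos at -5.80, -2.16 and -1.48 with EB and -8.08, -7.47 and -5.71 in controls (3.94 ± 0.87, adjusted p = 0.0233, above background on 1 of 3 control arrays) and the inhibitory receptor Btla at -5.49, -2.56 and -0.90 with EB and -7.35, -5.93 and -6.50 in controls (3.61 ± 0.81, adjusted p = 0.0251, above background on 2 of 3 control arrays). EB 1 lay above all controls for Vtcn1 and Btla, and just below the highest control for Icos. Havcr2 (2.70 ± 0.74, adjusted p = 0.0462) and Il2ra (2.94 ± 0.79, adjusted p = 0.0440, above background on 2 of 3 EB and 1 of 3 control arrays) rose, while Foxp3, the factor of regulatory T cells, stood at -6.00, -7.13 and -7.22 with EB and -5.67, -6.88 and -5.97 in controls (-0.61 ± 0.76, adjusted p = 0.674, above background on 1 of 3 EB arrays). Of 26 genes of cytotoxic lymphocytes and natural killer cells 5 rose (median 1.34): the pore former Prf1 (2.93 ± 0.59, adjusted p = 0.0183), the factor Eomes (3.30 ± 0.68, adjusted p = 0.0183, above background on 2 of 3 control arrays), Gzmm (2.38 ± 0.60, adjusted p = 0.0368), Nkg7 (1.78 ± 0.43, adjusted p = 0.0309) and Klrb1a (at least 3.24-fold higher, adjusted p = 0.0269, means -6.12 with EB and -8.96 in controls). Others of this list lay below 0 without passing, such as the granzyme genes Gzma (-1.39 ± 0.76, adjusted p = 0.278) and Gzmc (-1.56 ± 0.87, adjusted p = 0.293) and the factor Tbx21 (-0.67 ± 0.38, adjusted p = 0.307). The probe of Klrb1a may bind related receptors of its family. For Prf1, at -4.56, -3.54 and -1.67 with EB and -6.43, -5.97 and -6.14 in controls, all EB arrays lay above all controls. Neither list held a call without EB 3.

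Macrophage genes rose for 12 of 31 measured, and all 31 log2 ratios were above 0 (median 1.94). The EB arrays lay above the controls without overlap for 20 of them, against 11.5% of all genes. Adgre1 stood at -3.21, -0.58 and -0.51 on the EB arrays and at -4.49, -4.24 and -4.29 on the control arrays. Adgre1, the F4/80 antigen of macrophages, thus reached similar levels on EB 2 and EB 3, with EB 1 between them and the controls (2.91 ± 0.55, adjusted p = 0.0106). The lysosomal Cd68 (2.30 ± 0.51, adjusted p = 0.0250), the complement gene C1qb (1.99 ± 0.41, adjusted p = 0.0183), the receptor chain Fcer1g (1.94 ± 0.41, adjusted p = 0.0206), the sialic acid receptor Siglec1 (3.00 ± 0.69, adjusted p = 0.0269) and the mannose receptor Mrc1 (2.18 ± 0.57, adjusted p = 0.0396) rose as well, with EB 1 the lowest EB array for each. Csf1r, the receptor of their growth factor, stood at -3.14, -1.17 and -1.82 with EB and -3.38, -2.96 and -3.11 in controls (1.10 ± 0.44, adjusted p = 0.139) and did not pass. Among 16 genes of dendritic cells 2 rose, Clec9a (3.05 ± 0.73, adjusted p = 0.0304) and Irf8 (2.49 ± 0.63, adjusted p = 0.0363). The macrophage list held 27 calls without EB 1, 0 without EB 3, 0 without control 1, 3 without control 2 and 2 without control 3. Its median was 1.51 without EB 3 and 2.22 and 3.02 within slides 1 and 2.

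**Figure D3:**
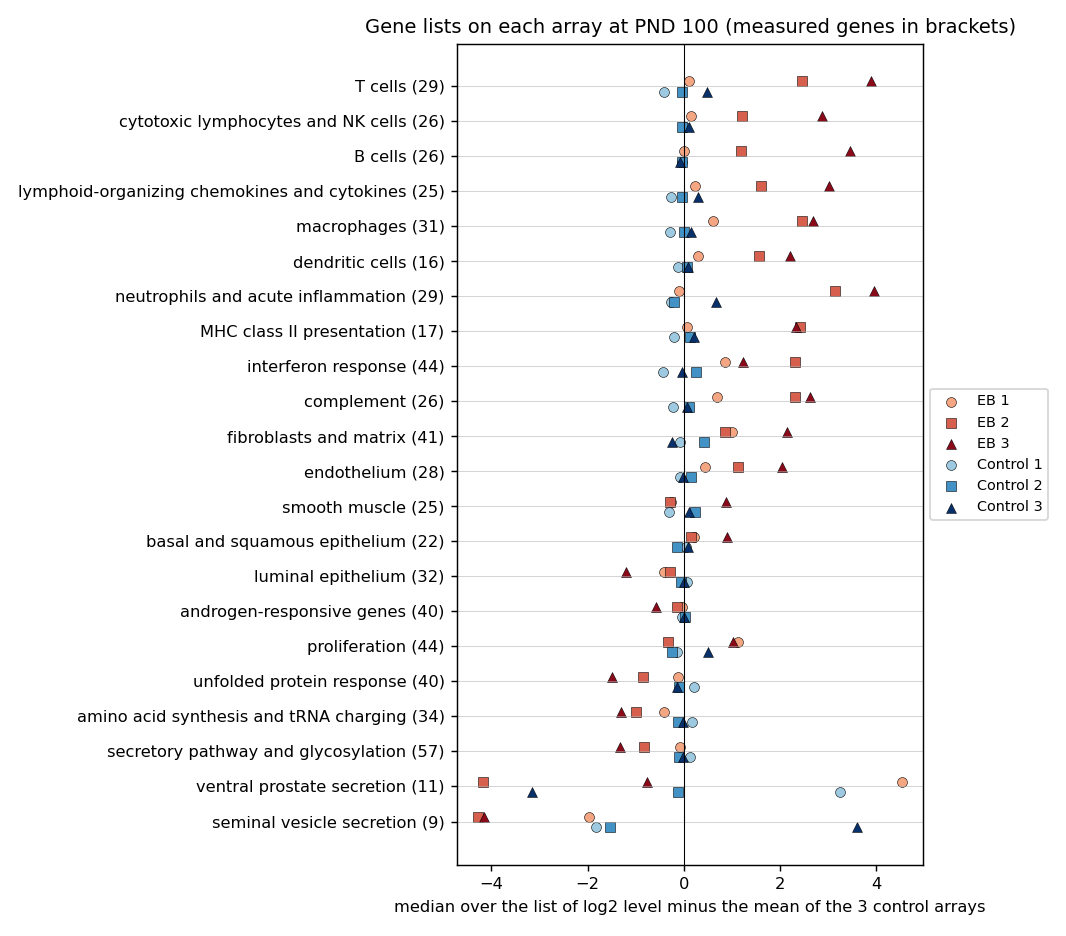
Median over each gene list of the log2 level minus the mean of the 3 control arrays (x axis) on EB 1, 2 and 3 (reds, upper row) and control 1, 2 and 3 (blues, lower row), with the number of measured genes in brackets. In the immune lists EB 3 and EB 2 lie mostly to the right of EB 1, in the lists of protein synthesis EB 3 and EB 2 lie to the left, and for seminal vesicle genes control 3 stands apart.

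Complement genes, of the blood-borne defence that tags targets for phagocytes, rose for 7 of 26 measured genes (median 1.66). For 16 all EB arrays lay above all controls, against 11.5% of all genes. C3 stood at -1.48, 3.11 and 2.92 on the EB arrays and at -3.27, -2.66 and -1.46 on the control arrays. Control 3 was level with EB 1 for C3, the central component, and EB 2 and EB 3 were far higher (3.98 ± 1.02, adjusted p = 0.0371). C7 of the membrane attack complex (2.06 ± 0.44, adjusted p = 0.0206), the inhibitor Serping1 (1.66 ± 0.42, adjusted p = 0.0368) and the integrin Itgb2 (2.65 ± 0.50, adjusted p = 0.0104) rose with all EB arrays above all controls. C4a (2.96 ± 0.79, adjusted p = 0.0426) and C4b (2.66 ± 0.68, adjusted p = 0.0377) rose, and as near copies of each other they may share signal. Without EB 3 the list held 0 calls.

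Antigen presentation by MHC class II rose for 8 of 17 measured genes and fell for none (median 1.66). Cd74 stood at 1.11, 3.77 and 3.96 on the EB arrays and at 0.29, 0.51 and 0.55 on the control arrays. Cd74, the invariant chain that guards the peptide groove, was above the controls on each EB array, on EB 1 by the least (2.50 ± 0.51, adjusted p = 0.0183). Ciita, the activator that switches the class II genes on, stood at -4.04, -1.10 and -0.58 with EB and -5.20, -4.53 and -4.37 in controls (2.80 ± 0.72, adjusted p = 0.0378). RT1-Bb (2.72 ± 0.62, adjusted p = 0.0263), RT1-Da (2.08 ± 0.57, adjusted p = 0.0474), RT1-Db2 (2.21 ± 0.62, adjusted p = 0.0489) and RT1-DOb (2.78 ± 0.67, adjusted p = 0.0304, above background on 2 of 3 control arrays) are class II chains whose probes may bind related RT1 genes. Ctss, the protease that trims Cd74 (1.66 ± 0.44, adjusted p = 0.0427), and Rfx5, a factor that binds class II promoters (0.92 ± 0.23, adjusted p = 0.0364), rose as well. MHC class I presentation, used by most cells, had 2 of 19 genes called, the peptide transporter Tap2 (1.53 ± 0.40, adjusted p = 0.0413) and RT1-N3 (2.23 ± 0.61, adjusted p = 0.0459), at a median of 0.71. Without EB 3 neither list held a call.

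Class II promoters are known to carry a Y box, the letters ATTGG or CCAAT, bound by the factor NF-Y. Promoters of RefSeq (build GRCr8, 300 bases around the gene start, mostly before it) were searched for ATTGG on both strands. It was found in 12 of the 15 class II genes that the table holds and in all 7 called ones with an entry, and in 37.7% of 27457 promoters. Those of Cd74 (chr18:56526956-56527255, plus strand) and RT1-Da (chr20:4515165-4515464, plus strand) are shown because these genes rose together, with matches in capitals.
Cd74: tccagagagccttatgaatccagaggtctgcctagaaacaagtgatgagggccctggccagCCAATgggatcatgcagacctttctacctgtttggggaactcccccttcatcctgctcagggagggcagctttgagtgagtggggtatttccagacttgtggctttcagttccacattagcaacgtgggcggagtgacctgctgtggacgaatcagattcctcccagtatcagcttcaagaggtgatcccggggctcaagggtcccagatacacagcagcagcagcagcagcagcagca
RT1-Da: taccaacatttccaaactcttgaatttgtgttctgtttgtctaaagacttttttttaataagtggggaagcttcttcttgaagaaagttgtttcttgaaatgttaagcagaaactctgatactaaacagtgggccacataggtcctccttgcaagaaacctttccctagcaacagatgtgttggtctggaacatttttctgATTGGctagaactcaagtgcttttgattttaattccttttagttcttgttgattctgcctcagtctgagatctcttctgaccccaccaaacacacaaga
A match describes the letters and does not show a bound site.

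Interferon-response genes lay higher on each EB array by their list median, EB 1 included. Of 44 measured genes 24 had all EB arrays above all controls, against 11.5% of all genes. The list median over the control mean was 0.85, 2.31 and 1.24 on EB 1, 2 and 3, against -0.44, 0.25 and -0.03 on the controls. Only 5 were called (median log2 ratio 1.62). Cmpk2 stood at -2.02, -0.68 and -1.68 on the EB arrays and at -4.62, -3.51 and -4.10 on the control arrays. Cmpk2, a mitochondrial nucleotide kinase, separated the groups with EB 2 highest (2.61 ± 0.66, adjusted p = 0.0366), and so did the ubiquitin ligase Herc6 (2.78 ± 0.72, adjusted p = 0.0378) and the helicase Ddx60 (4.59 ± 1.08, adjusted p = 0.0294, above background on 1 of 3 control arrays). Parp14 stood at 0.26, 1.76 and 1.34 with EB and -0.41, -0.28 and -0.73 in controls (1.59 ± 0.42, adjusted p = 0.0413) and Xaf1 at -5.77, -4.52 and -5.17 with EB and -7.49, -6.92 and -7.29 in controls (2.08 ± 0.50, adjusted p = 0.0311, above background on 1 of 3 control arrays). The antiviral Mx1 at 1.12, 3.01 and 0.97 with EB and -1.84, 0.09 and -1.23 in controls did not pass (2.69 ± 0.88, adjusted p = 0.0779), and neither did Isg15 at 0.58, 2.35 and -1.29 with EB and -2.55, -0.67 and -1.95 in controls (2.27 ± 1.06, adjusted p = 0.205). The list median was 1.64 without EB 3, with 0 calls, and 2.33 and 1.74 within slides 1 and 2.

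The interferon-stimulated response element is bound by interferon regulatory factors. Its letters, GAAA, 2 of any base and GAAA, were found on either strand in 24 of 35 promoters of this list and in 3.77% of 27457 promoters. Among the 5 called genes Ddx60, Parp14 and Xaf1 held it, and no match lay in these windows of Cmpk2 and Herc6. The promoters of Parp14 (chr11:78407884-78408183, plus strand) and Xaf1 (chr10:57415685-57415984, plus strand) are shown with the match in capitals.
Parp14: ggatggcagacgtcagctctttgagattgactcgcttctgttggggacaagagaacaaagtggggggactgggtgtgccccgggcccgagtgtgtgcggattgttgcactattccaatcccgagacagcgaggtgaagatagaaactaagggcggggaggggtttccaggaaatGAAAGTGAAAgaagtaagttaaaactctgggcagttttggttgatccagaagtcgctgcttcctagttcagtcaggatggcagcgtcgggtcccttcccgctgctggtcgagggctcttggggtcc
Xaf1: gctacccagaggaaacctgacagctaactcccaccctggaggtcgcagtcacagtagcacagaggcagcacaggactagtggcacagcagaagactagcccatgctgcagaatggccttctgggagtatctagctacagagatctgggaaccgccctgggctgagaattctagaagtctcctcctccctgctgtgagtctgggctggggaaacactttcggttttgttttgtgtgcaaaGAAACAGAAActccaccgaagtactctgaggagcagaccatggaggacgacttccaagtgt

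Genes of neutrophils and acute inflammation split the EB arrays. Of 29 measured genes 1 was called, the collagenase Mmp8 (at least 2.20-fold higher, adjusted p = 0.0485, means -6.68 with EB and -9.36 in controls). S100a8 stood at -8.63, -1.20 and -1.31 on the EB arrays and at -9.13, -9.27 and -7.41 on the control arrays. S100a8, a calcium-binding protein that neutrophils hold in bulk, was thus at background on EB 1 and on the controls and high on EB 2 and EB 3 (at least 16.6-fold higher, adjusted p = 0.0620). The interleukin gene Il1b stood at -3.58, 0.34 and 0.39 with EB and -4.37, -4.70 and -3.21 in controls (3.14 ± 0.99, adjusted p = 0.0710) and the chemokine Ccl3 at -4.60, -0.07 and -0.62 with EB and -5.68, -5.67 and -5.08 in controls (3.72 ± 1.12, adjusted p = 0.0621), again with EB 1 among or near the controls. The list median was -0.09, 3.14 and 3.95 on EB 1, 2 and 3. Its median log2 ratio was 2.62, or 1.51 with 11 genes at their bounds, and T cells, macrophages, complement and interferon lists then had higher medians. Among 17 genes of mast cells and eosinophils the eosinophil receptor Ccr3 was called (3.38 ± 0.83, adjusted p = 0.0331, above background on 1 of 3 control arrays). That list had 8 ratios below 0 and a median of 0.51, or 0.10 with bounds.

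**Figure D4:**
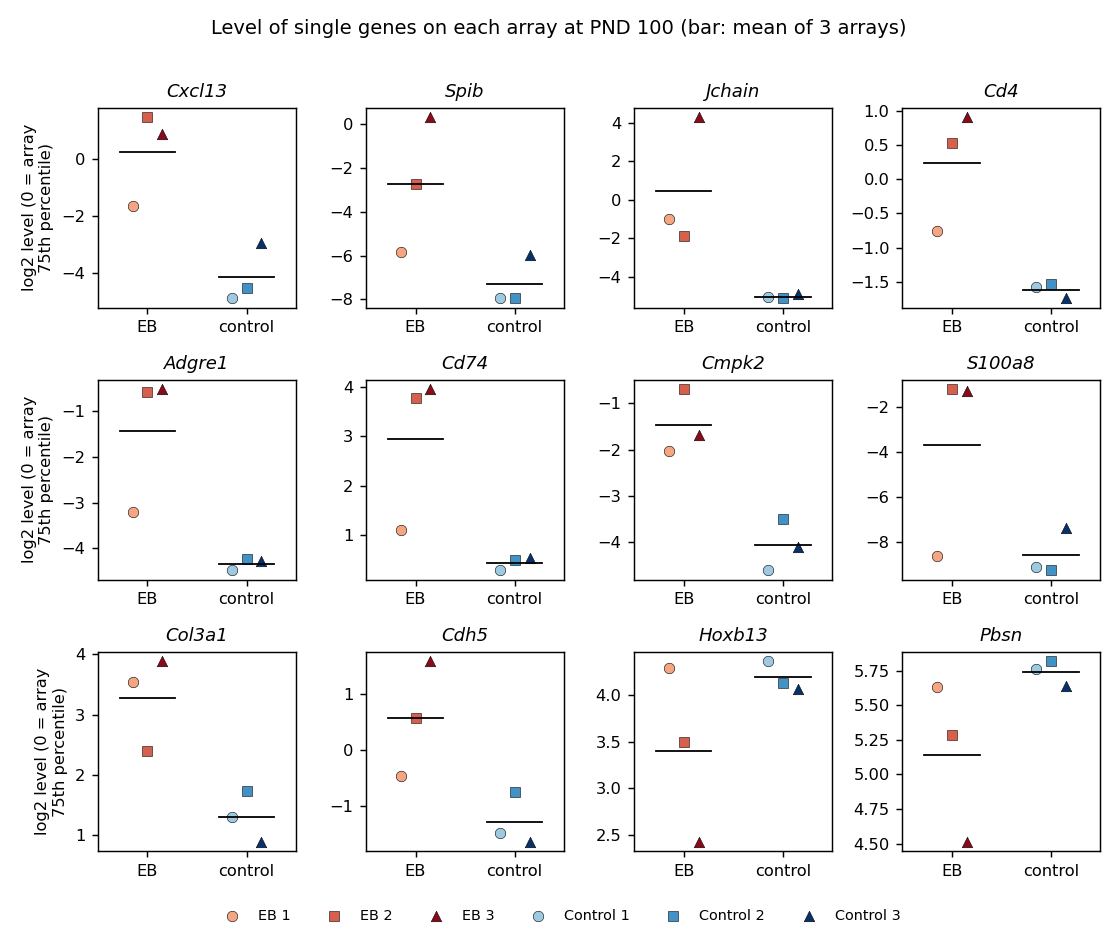
Log2 level (y axis, 0 at the 75th percentile of the array) of 12 genes on the EB arrays (left, reds) and control arrays (right, blues) at PND 100, with bars at the mean of 3 arrays. EB 1 is the lowest EB array for Cxcl13, Spib, Cd4, Adgre1, Cd74 and Cmpk2 and lies near the controls for S100a8, and Hoxb13 and Pbsn are lowest on EB 3.

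Genes of the stroma lay higher, with all 41 log2 ratios of the fibroblast and matrix list above 0 (median 1.41). For 26 of 41 all EB arrays lay above all controls, against 11.5% of all genes. Called were 6: the fibrillar collagen Col3a1, Postn, Eln, Mfap4, the receptor Pdgfrb and the gelatinase Mmp2. Col3a1 stood at 3.54, 2.40 and 3.89 on the EB arrays and at 1.31, 1.73 and 0.88 on the control arrays. EB 1 and EB 3 stood highest here, so EB 1 did not resemble the controls as it did for lymphocyte genes (1.97 ± 0.53, adjusted p = 0.0431). Mmp2 stood at 1.47, 1.60 and 2.45 with EB and 0.02, 0.41 and -0.70 in controls (1.93 ± 0.40, adjusted p = 0.0184) and Eln, the elastin gene, at 0.61, 1.03 and 2.76 with EB and -1.14, -0.43 and -1.12 in controls (2.36 ± 0.56, adjusted p = 0.0304). Col1a1 at 3.64, 2.90 and 3.42 with EB and 1.98, 2.30 and 0.82 in controls missed the threshold narrowly (1.62 ± 0.45, adjusted p = 0.0505). The list held 6 calls without EB 2, 0 without EB 3, 0 without control 1 and 0 without control 3. Within slides 1 and 2 its median was 1.14 and 2.21.

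Vessel genes followed, 4 of 28 called (median 1.21). The endothelial cadherin Cdh5 stood at -0.47, 0.58 and 1.60 with EB and -1.48, -0.76 and -1.66 in controls (1.87 ± 0.51, adjusted p = 0.0474), and Egfl7 (1.70 ± 0.44, adjusted p = 0.0371), the factor Sox18 (1.62 ± 0.43, adjusted p = 0.0413) and the selectin Sele (2.89 ± 0.78, adjusted p = 0.0451, above background on 1 of 3 control arrays), which catches leukocytes, rose as well. Vwf, the von Willebrand factor gene, stood at -0.74, -1.74 and -2.21 with EB and -0.63, -0.98 and -0.78 in controls, with EB 1 inside the control range and EB 2 and EB 3 below it (-0.77 ± 0.40, adjusted p = 0.260). Smooth muscle genes had a median of 0.03 and 1 call of 25, the calcium pump regulator Pln (1.72 ± 0.47, adjusted p = 0.0454). Acta2 at -0.03, -1.51 and 0.79 with EB and -0.45, 0.09 and -0.41 in controls (0.01 ± 0.48, adjusted p = 0.995) and Myh11 at 2.48, 2.75 and 3.85 with EB and 2.28, 3.16 and 2.80 in controls (0.28 ± 0.45, adjusted p = 0.758) did not separate the groups. Neither list held a call without EB 3.

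The labelled tissue was checked against its own markers, and prostate genes were bright on every array. Pbsn, the androgen-driven secretory probasin, stood at 5.63, 5.29 and 4.51 with EB and 5.76, 5.82 and 5.64 in controls (-0.60 ± 0.36, adjusted p = 0.329), and the prostate factor Hoxb13 at 4.28, 3.49 and 2.42 with EB and 4.37, 4.13 and 4.06 in controls (-0.79 ± 0.62, adjusted p = 0.476). EB 3 was the lowest array for both genes. Of the luminal keratins, Krt8 stood at 0.98, 0.81 and -0.33 with EB and 1.08, 0.97 and 2.58 in controls (-1.05 ± 0.74, adjusted p = 0.418) and Krt18 at 5.07, 5.27 and 4.13 with EB and 5.75, 5.63 and 5.62 in controls (-0.84 ± 0.38, adjusted p = 0.190). None of 32 luminal genes was called (limma, 5 at an unadjusted p under 0.05, against 22.2% of all genes). Yet 27 had log2 ratios below 0 (median -0.64), and their list median was -0.42, -0.29 and -1.21 on EB 1, 2 and 3. The basal cell markers overlapped between groups, with Krt5 at -1.56, -1.59 and -1.02 with EB and -1.14, -1.23 and -1.17 in controls (-0.21 ± 0.44, adjusted p = 0.822) and Tp63 at 0.96, 0.77 and 0.56 with EB and 0.74, 0.88 and 0.13 in controls (0.18 ± 0.37, adjusted p = 0.815). Of 22 basal and squamous genes the integrin Itgb4 was called (1.38 ± 0.34, adjusted p = 0.0359), with all EB arrays above all controls and EB 3 highest, and the list median was 0.17, or -0.05 with median scaling.

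Some secretory products varied widely between arrays of 1 group. Ventral prostate products had list medians of 4.53, -4.17 and -0.76 above the control mean on EB 1, 2 and 3, and 3.25, -0.11 and -3.16 on the controls. Seminal vesicle products had -1.97, -4.27 and -4.15 on the EB arrays against -1.83, -1.54 and 3.60 on the controls, so control 3 stood apart. Of the 9 measured, Pate4 and Svs5 were at background on all 3 EB arrays and did not pass (adjusted p = 0.0618 and 0.0910). Pate4 stood at -9.04, -9.07 and -9.44 with EB and -4.03, -6.36 and 4.56 in controls. Svs5 stood at -7.49, -9.66 and -9.70 with EB and -4.89, -6.90 and 2.91 in controls. Controls 1 and 2 thus also lay above all EB arrays, while control 3 was far above both and weighs heavily on the size of any fold. Without control 3 the list median was -1.82 in place of -3.51. How much the amount of ventral lobe or seminal vesicle in each sample adds to other genes was not tested. Among dorsolateral products the receptor Gucy2c fell (-4.44, -5.91 and -6.43 with EB and -3.34, -3.34 and -2.46 in controls, -2.55 ± 0.68, adjusted p = 0.0426), the only call of 21. Msmb at 5.88, 5.52 and 4.96 with EB and 5.89, 5.81 and 5.31 in controls (-0.22 ± 0.26, adjusted p = 0.658) and Tgm4 at 5.43, 6.28 and 5.58 with EB and 6.87, 6.84 and 6.09 in controls (-0.83 ± 0.72, adjusted p = 0.523) did not pass. Slc39a10 came nearer without passing (-2.37 ± 0.73, adjusted p = 0.0664), with all EB arrays below all controls. Wfdc3 split the EB arrays, at 6.43, -3.25 and -1.32 with EB and 4.43, 5.01 and 4.81 in controls (-4.13 ± 1.57, adjusted p = 0.123). For 7 of the 21 all EB arrays lay below all controls, against 15.3% of all genes. For 3 they lay above all controls, against 11.5%. Adipocyte genes were highest on control 3 (list median 1.63) and germ cell genes on EB 1 (2.06), and no gene of those 2 lists was called (limma, 2 and 0 at an unadjusted p under 0.05).

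Of 34 measured genes that make amino acids, charge tRNAs or respond to their supply 10 fell with EB and none rose (median -0.88). Of their log2 ratios 33 were below 0, and for 20 all EB arrays lay below all controls, against 15.3% of all genes. Gars1 stood at 2.80, 2.61 and 2.09 on the EB arrays and at 3.55, 3.11 and 3.26 on the control arrays. Gars1, the glycyl-tRNA synthetase, separated the groups with EB 3 lowest (-0.80 ± 0.16, adjusted p = 0.0183). Aars1 stood at 2.05, 1.73 and 1.39 with EB and 2.82, 2.68 and 2.56 in controls (-0.97 ± 0.22, adjusted p = 0.0269) and Mars1 at 1.16, 0.93 and 0.38 with EB and 1.58, 1.58 and 1.76 in controls (-0.82 ± 0.20, adjusted p = 0.0304), and Tars1, Eprs1 and Yars1 of the same enzyme class fell too. Psat1 stood at 2.10, 1.10 and 0.60 on the EB arrays and at 3.38, 2.57 and 3.54 on the control arrays. Psat1, an enzyme of serine synthesis, had the lowest ratio of the called genes of this list, and EB 3 was lowest (-1.90 ± 0.44, adjusted p = 0.0269). Shmt2, which takes serine into the folate pool (-0.86 ± 0.19, adjusted p = 0.0260), the stress gene Sesn2 (-1.45 ± 0.35, adjusted p = 0.0311) and the glutathione-degrading Chac1 (-0.93 ± 0.25, adjusted p = 0.0459) completed the list. Asns, the asparagine synthetase, stood at 1.55, 0.91 and -0.22 with EB and 2.32, 2.01 and 2.08 in controls and did not pass (-1.39 ± 0.52, adjusted p = 0.119), nor did Trib3 (-1.80 ± 0.51, adjusted p = 0.0506). The list held 20 calls without EB 1, 0 without EB 3, 0 without control 1, 3 without control 2 and 0 without control 3, at medians of -0.64 without EB 3 and -0.92 and -1.45 within slides 1 and 2.

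Several of these genes are known targets of Atf4, a factor that binds a C/EBP-ATF response element. The letters TGATGNAA were found on either strand in 11 of 30 promoters of this list and in 3.82% of 27457 promoters. Among the called genes Aars1, Tars1, Mars1, Yars1 and Chac1 held a match, and none lay in these windows of Psat1, Shmt2, Sesn2 and Eprs1. Gars1, also called, had no promoter entry and was not searched. The promoters of Aars1 (chr19:55908232-55908531, plus strand), Tars1 (chr2:62114753-62115052, minus strand) and Mars1 (chr7:65023704-65024003, minus strand) are shown because the genes fell in parallel, with matches in capitals.
Aars1: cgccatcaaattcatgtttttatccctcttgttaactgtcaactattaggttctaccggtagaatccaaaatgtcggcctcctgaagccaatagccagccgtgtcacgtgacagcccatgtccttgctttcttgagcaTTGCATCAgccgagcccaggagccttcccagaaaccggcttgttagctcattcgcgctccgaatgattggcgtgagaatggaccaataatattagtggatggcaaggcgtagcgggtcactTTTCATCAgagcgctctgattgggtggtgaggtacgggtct
Tars1: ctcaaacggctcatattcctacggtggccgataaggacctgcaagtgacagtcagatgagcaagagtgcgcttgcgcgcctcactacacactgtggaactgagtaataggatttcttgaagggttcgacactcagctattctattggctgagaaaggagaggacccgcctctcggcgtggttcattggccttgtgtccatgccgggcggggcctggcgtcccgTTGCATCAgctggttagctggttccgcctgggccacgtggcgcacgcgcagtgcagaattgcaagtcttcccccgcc
Mars1: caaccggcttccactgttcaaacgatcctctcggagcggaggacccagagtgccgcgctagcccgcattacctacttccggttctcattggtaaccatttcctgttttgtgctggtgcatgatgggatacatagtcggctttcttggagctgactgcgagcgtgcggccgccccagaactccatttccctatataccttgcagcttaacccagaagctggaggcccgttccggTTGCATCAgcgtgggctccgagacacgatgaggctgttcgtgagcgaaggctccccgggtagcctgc
A match describes letters, as above.

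Atf4 stood at 4.05, 3.55 and 3.09 on the EB arrays and at 4.81, 4.52 and 4.44 on the control arrays. Atf4 itself fell, with all EB arrays below all controls (-1.03 ± 0.23, adjusted p = 0.0251). Atf6, a sensor of misfolded protein (1.46, 1.38 and 0.70 with EB and 2.57, 1.98 and 2.07 in controls, -1.02 ± 0.23, adjusted p = 0.0260), and Pdia3, a disulfide isomerase (0.62, 1.00 and 0.62 with EB and 2.64, 2.23 and 2.05 in controls, -1.56 ± 0.39, adjusted p = 0.0359), were the other called genes among 40 of the unfolded protein response. All 40 log2 ratios were below 0 (median -0.82), 14 without overlap, against 15.3% of all genes. The chaperone Hspa5 at 5.15, 4.28 and 3.74 with EB and 5.56, 5.21 and 5.14 in controls (-0.91 ± 0.29, adjusted p = 0.0753) and Manf at 5.41, 4.36 and 3.66 with EB and 5.82, 5.47 and 5.40 in controls (-1.09 ± 0.33, adjusted p = 0.0654) did not pass, with EB 1 inside the control range for both. Ddit3, induced under lasting stress, stood at 1.00, 1.01 and 0.95 with EB and 1.85, 0.94 and 0.93 in controls (-0.25 ± 0.44, adjusted p = 0.776). Median scaling moved the median of all genes to -0.28 and that of this list to -1.04. Without EB 3 the list held 0 calls at a median of -0.45.

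Export of protein from the endoplasmic reticulum followed the same course, with 7 of 57 measured genes called lower and none higher (median -0.73). For 27 all EB arrays lay below all controls, against 15.3% of all genes. Sec11a stood at 2.06, 1.81 and 2.00 on the EB arrays and at 3.08, 2.74 and 3.09 on the control arrays. Sec11a, the catalytic subunit that cuts signal peptides, varied little within either group and was 2.02-fold lower with EB (-1.01 ± 0.16, adjusted p = 0.00401). It stayed called with each array left out, at log2 ratios of -1.13 to -0.94. Srp9 and Srp14 of the signal recognition particle (-1.65 ± 0.41, adjusted p = 0.0359 and -0.80 ± 0.20, adjusted p = 0.0368), the coat protein Sec13 (-0.87 ± 0.23, adjusted p = 0.0451), Sar1a, which starts coat assembly (-0.68 ± 0.15, adjusted p = 0.0206), the Golgi protein Golga2 (-1.04 ± 0.24, adjusted p = 0.0260) and Ddost, which adds sugars to nascent chains (-1.31 ± 0.36, adjusted p = 0.0470), fell as well. Luminal markers lay lower on the same arrays, as given above, and their part in these changes was not tested. Without EB 3 Sec11a was the only call of this list, and without control 1 it was the only one too.

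**Figure D5:**
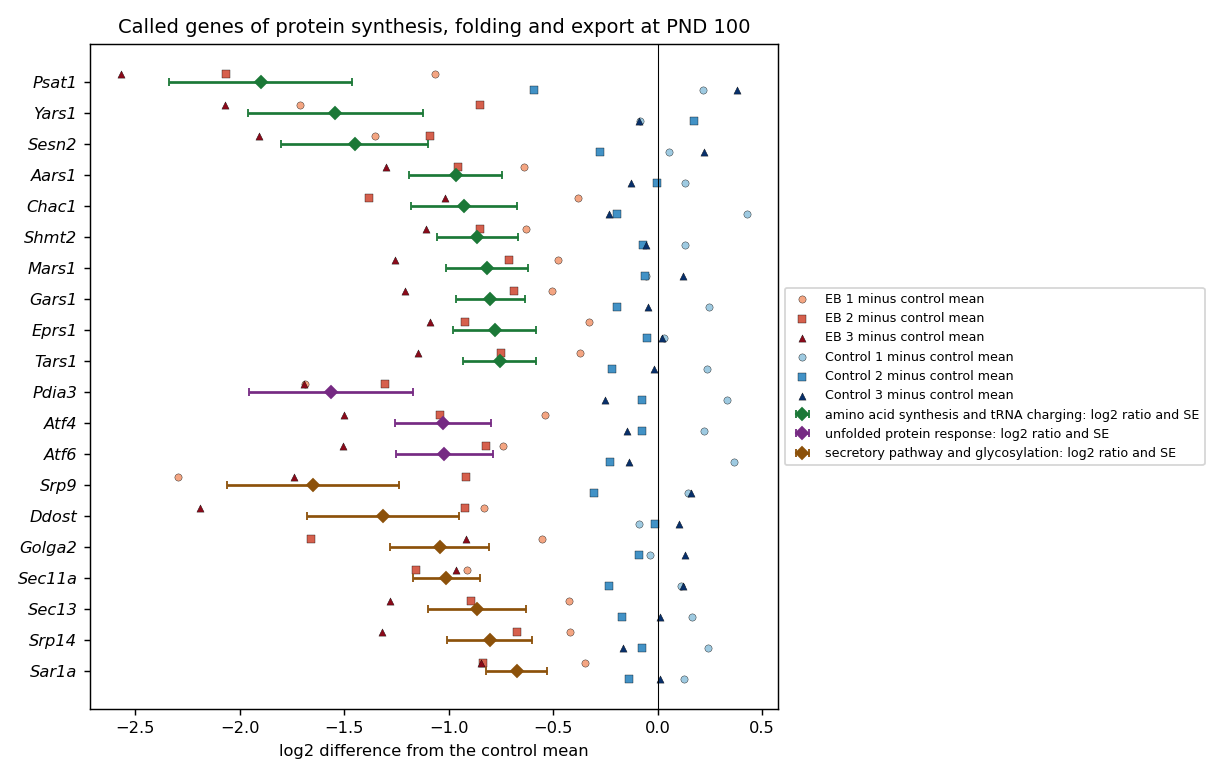
Log2 difference from the control mean (x axis) of the 20 called genes of amino acid and tRNA charging, unfolded protein response and secretory pathway lists, with diamonds at the log2 ratio and bars of 1 SE, EB arrays as reds above and control arrays as blues below each diamond. All EB points lie left of 0, and for Sec11a the 3 EB arrays lie close together.

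Other called genes that fell are given here. Elmod1 stood at -3.54, -5.66 and -4.90 on the EB arrays and at -0.03, -0.44 and -0.81 on the control arrays. Elmod1, which acts on small GTPases, lay far below the controls on all EB arrays (-4.28 ± 0.73, adjusted p = 0.00470). Angptl1, a secreted angiopoietin-like protein, stood at -3.59, -6.62 and -6.93 with EB and -2.14, -1.67 and -1.27 in controls (-4.01 ± 0.79, adjusted p = 0.0149), with EB 1 nearest to the controls. Zfp707 (-0.52, -0.82 and -1.47 with EB and 1.02, 1.37 and 1.07 in controls, -2.09 ± 0.35, adjusted p = 0.00402) and Zfp707l1 (-1.99, -2.07 and -2.80 with EB and -0.42, -0.14 and -0.31 in controls, adjusted p = 0.0101) are related zinc finger genes whose probes may bind both transcripts. Rn5-8s, of ribosomal RNA, stood at -2.31, -2.71 and -5.42 with EB and -1.09, -0.45 and 0.11 in controls (-3.00 ± 0.74, adjusted p = 0.0331). Gsta3, a glutathione transferase of a family with close copies (-2.20 ± 0.57, adjusted p = 0.0378), and Prdx6, a peroxide-reducing enzyme (3.97, 3.92 and 3.64 with EB and 5.66, 5.44 and 4.33 in controls, -1.30 ± 0.33, adjusted p = 0.0371), were the 2 calls among 41 genes of antioxidant defence (median -0.24). Acot1, which frees fatty acids from coenzyme A (-1.82 ± 0.47, adjusted p = 0.0378), the peroxisomal Pxmp4 (-1.82 ± 0.49, adjusted p = 0.0431) and the mitochondrial folate enzyme Aldh1l2 (-1.82 ± 0.43, adjusted p = 0.0304) fell too. The defensin gene Defb2 was at least 4.24-fold lower (adjusted p = 0.0384, means -8.94 with EB and -5.64 in controls). Without EB 3 none of these was called.

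Among other genes that rose furthest, the resistin-like Retnlg stood at -1.80, -1.86 and -0.60 with EB and -5.80, -5.95 and -3.95 in controls (3.81 ± 0.78, adjusted p = 0.0183), and Adam12, a membrane metalloprotease, at -2.07, -2.49 and -1.86 with EB and -5.14, -5.61 and -4.84 in controls (3.06 ± 0.69, adjusted p = 0.0260). All EB arrays lay above all controls for both genes. B4galt6, an enzyme of glycolipid synthesis, was highest on EB 1, at -0.13, -2.16 and -0.69 with EB and -4.08, -4.23 and -3.83 in controls (3.05 ± 0.82, adjusted p = 0.0440), and Igsf10 stood at -0.57, -0.01 and 2.02 with EB and -2.71, -2.21 and -3.03 in controls (3.13 ± 0.59, adjusted p = 0.0109). The receptor Tnfrsf14 (3.64 ± 0.71, adjusted p = 0.0134), Tlr12 (3.38 ± 0.80, adjusted p = 0.0298) and the adaptor Scimp (3.37 ± 0.85, adjusted p = 0.0359) rose with EB 1 the lowest EB array. The colony-stimulating factor Csf2 was at least 9.21-fold higher (adjusted p = 0.0309, means -4.61 with EB and -8.67 in controls), with all 3 EB arrays above background and none of the controls, and the scavenger receptor Scart1 was at least 16.9-fold higher (adjusted p = 0.00808, means -3.58 with EB and -7.87 in controls). Without EB 3 none of these was called.

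The steroid receptor genes given here did not pass. Esr1 stood at -4.64, -4.96 and -3.03 with EB and -4.69, -4.90 and -4.75 in controls (0.57 ± 0.47, adjusted p = 0.506) and Esr2 at -5.95, -6.55 and -7.47 with EB and -5.93, -5.68 and -5.96 in controls (-0.80 ± 0.68, adjusted p = 0.519, above background on 2 of 3 EB arrays). The prolactin receptor Prlr at 0.00, -2.11 and -4.27 with EB and -2.36, -2.45 and -2.17 in controls (0.20 ± 1.20, adjusted p = 0.941) spread widely over the EB arrays while the controls lay close together. Pgr, the progesterone receptor and a classic estrogen target, was at background on the controls and above it on 2 of 3 EB arrays, at -7.23, -6.79 and -4.72 with EB and -9.06, -7.46 and -8.33 in controls (at least 2.70-fold higher, adjusted p = 0.0861). None of 23 genes of steroid receptors and steroid conversion was called (limma, 6 at an unadjusted p under 0.05). Of 40 androgen-responsive genes none was called (limma, 8 at an unadjusted p under 0.05), and their median was -0.05. By limma 2.69% of all genes were called and 22.2% had an unadjusted p under 0.05, so neither list stands apart by these counts. Of 34 estrogen-responsive genes 4 were called. C3 and Cxcl12 rose, Tff1 was at least 1.66-fold higher (adjusted p = 0.0435, means -7.09 with EB and -9.54 in controls), and the lysosomal protease Ctsd fell (-0.74 ± 0.20, adjusted p = 0.0489).

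Developmental genes gave 2 calls of 44, against 2.69% of all genes called. Gli2, the effector of hedgehog signals in the mesenchyme, stood at -3.40, -2.68 and -1.43 with EB and -4.61, -3.84 and -4.87 in controls (1.93 ± 0.47, adjusted p = 0.0317), and the receptor Notch1 at -0.72, -0.34 and 0.73 with EB and -1.73, -1.57 and -2.06 in controls (1.68 ± 0.42, adjusted p = 0.0359), both with EB 3 highest and all EB arrays above all controls. Fgf10, a mesenchymal growth factor of the budding prostate, stood at -2.89, -3.68 and -1.79 with EB and -4.03, -3.90 and -3.95 in controls and did not pass (1.18 ± 0.44, adjusted p = 0.115). No proliferation gene was called (limma, 9 of 44 at an unadjusted p under 0.05), and their list median was 1.13, -0.33 and 1.02 on EB 1, 2 and 3, against -0.14, -0.24 and 0.50 on the controls. The division marker Mki67 stood at -1.49, -3.66 and -1.39 with EB and -3.94, -3.91 and -2.88 in controls (1.40 ± 0.58, adjusted p = 0.155), with EB 2 inside the control range. Of 34 genes of DNA methylation and repressive chromatin none was called (limma, 8 at an unadjusted p under 0.05), Dnmt3b standing at -5.15, -4.77 and -3.85 with EB and -5.97, -5.09 and -5.69 in controls (0.99 ± 0.31, adjusted p = 0.0708). Without EB 3 the 2 developmental calls were lost.

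The same genes were then read on arrays that did not enter the EB and control means at PND 100. Those arrays did enter the shared spread and the background filter behind the calls. They are thus not fully independent of how the genes were chosen. At PND 145, with 4 EB and 3 control arrays, 94.3% of the 423 higher genes had a log2 ratio above 0 (median 0.98), against 49.2% of all genes. Of the 204 lower genes 98% had a ratio below 0 there (median -0.53), against 50.8% of all genes. In animals that carried testosterone and estradiol implants at PND 100, the EB ratio was above 0 for 93.4% of the higher genes (median 1.28), against 43.7% of all genes, and below 0 for 88.2% of the lower ones (median -0.37), against 56.3%. At PND 30, with 4 arrays in each group, 61.9% of the higher genes lay above 0 (median 0.14, all genes 37.5%), and 94.6% of the lower genes lay below it (median -0.38, all genes 62.5%). Most genes lower at PND 100 thus had ratios below 0 at each age and with implants, while ratios of the higher genes at PND 30 were small.

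Ratios of single genes are given by age without a test of their order. The log2 ratio of Cxcl13 was 0.03 at PND 30, 4.35 at PND 100 and 2.17 at PND 145. For Jchain it was -0.37, 5.49 and 1.71, and for Adgre1 0.31, 2.91 and 1.03. These genes were picked by their values at PND 100. Elmod1 had -0.16, -4.28 and -2.96, and Aars1 -0.51, -0.97 and -1.01. EB called 9 genes at PND 30 (0.0386%) and 133 at PND 145 (0.571%).

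Whether the EB effect itself differed between ages was tested by its difference. Against PND 30, 5 genes differed (0.0215% of 23296), all with the higher log2 ratio at PND 100, and 1952 (8.38%) had an unadjusted p under 0.05. Sh2d2a, a T cell adapter, was at least 7.14-fold higher (adjusted p = 0.00901, means -4.98 with EB and -8.51 in controls) with EB at PND 100 while its log2 ratio at PND 30 was -1.28 ± 0.56 (adjusted p of the difference = 0.0276). LOC108353549 stood at -5.30, -6.77 and -6.80 with EB and -9.39, -9.56 and -9.65 in controls at PND 100, at least 2.89-fold higher, and its difference passed as well (adjusted p = 0.0216). For both genes the PND 100 controls were at background, so the size of the difference is not measured. The other 3 were probes with no gene name here. A_64_P095554, at chr6:138310069-138310128 of rn4, stood at 1.33, -0.58 and 5.42 with EB and -6.73, -9.47 and -6.50 in controls, and its log2 ratio was 9.62 ± 1.17 (adjusted p = 1.78e-04, above background on 2 of 3 control arrays). A_44_P1155714, at chr4:103896615-103896674, stood at 3.19, 1.17 and 5.54 with EB and -2.91, -4.08 and -3.13 in controls (6.67 ± 0.83, adjusted p = 1.78e-04). Both were highest on EB 3 and far above the controls on each EB array. Without EB 3 this difference had 4 calls, without EB 1 it had 428 and without EB 2 it had 22, while without control 2 of PND 100 or control 1 of PND 30 it had 0. Against PND 145, 0 genes differed by limma (1005, or 4.31%, at an unadjusted p under 0.05).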

How the data were processed

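Spot intensity values were deposited by the authors as Agilent Feature Extraction output (version 12.0.0.7, protocol GE1_1200_Jun14, background-subtracted with surrogates for dim spots, per the file headers). A deposited table of the series holds linear intensity values at a common 75th percentile, and was used as an alternative. From the scanner files, log2 of the deposited processed signal minus log2 of each array's 75th percentile was computed, control and outlier spots left out and spots of a probe averaged. The brightest probe stood for each gene. Genes had to be well above background on 3 or more of the 33 arrays. Of 45598 probes, 24470 were named by accession, 6442 by symbol and 318 by synonym through RefSeq, 4945 kept the file's name and 9423 had none. limma 3.58.1 (R 4.3.3) fitted means of 10 groups on 33 arrays with a trended, robust spread and Benjamini-Hochberg adjustment, and Python 3.11.15, pandas 2.3.3 and matplotlib 3.10.9 made the tables and plots. The number of arrays limits the precision.

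In data simulated for EB against control at PND 100 (23083 genes), 22 of 100 genes changed by a log2 ratio of 1 and 59 of 100 changed by 2 were recovered, with 4 false calls. The simulated noise was normal, independent between genes and arrays, and of equal spread in every group. On the real arrays the median SD of all genes was 0.51 with EB and 0.26 in controls, so these rates need not hold there. Named are the 15 highest and 15 lowest called ratios among symbols above background on all 6 arrays without overlap, the 3 largest bounds in each direction, up to 6 members of each list by p plus its defining genes, and receptors and prostate markers. Other genes of a list are named as examples after their values were seen. The members and gene lists were chosen with earlier results of these data known. Alternatives were normexp background correction, quantile and median scaling, other filters, mean probes, fitting only the compared groups, slide or replicate as a block, array weights, an untrended fit, the deposited table, a 2-fold threshold and leaving out each array. The slide was read from the files' names. Probe positions are of rn4, per the file headers, and promoters of GRCr8. Some named genes are not reported here.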

Additional observations from a re-analysis of the deposited data

Results flagged for a closer look

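The EB effect differed between PND 100 and PND 30, by a test of the difference itself, for 5 genes. The difference in log2 ratio was 7.18 for the probe A_44_P1155714 and 9.50 for A_64_P095554. It was 9.09 for a further unnamed probe, at chr4:101181543-101181602 of rn4, which was at least 159-fold higher with EB at PND 100. It was 4.04 for LOC108353549 and 4.81 for Sh2d2a. For the last 3 the PND 100 controls were at background, so these fitted differences are not measured sizes. A_64_P095554 was above background on 2 of 3 PND 100 controls, so the size of its difference is uncertain too.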

How the results depend on the processing

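Against 627 genes called for EB at PND 100, normexp background correction gave 74, median scaling 251, no filter 265, the 6 arrays alone 0 (limma, 4113 at an unadjusted p under 0.05), slide as a block 1601 and array weights 4170. With each array left out the count ran from 7 to 2704. The replicate number as a block gave 395. Deviations of same-numbered arrays correlated at 0.153, 0.156 and 0.071, and those of differently numbered arrays at -0.153 to 0.038. Each array thus correlated best with its own number, at low values. The numbers were not taken as pairs in the main fit, and whether same-numbered arrays belong together is not known. For the difference between PND 100 and PND 30, with 5 calls, normexp gave 1, quantile scaling 2, a filter of 17 arrays 3, the compared groups alone 0 (limma, 1994 at an unadjusted p under 0.05), slide as a block 19 and array weights 951, and leaving out each array 0 to 428. For the difference between PND 100 and PND 145, with 0 calls, array weights gave 76 and leaving out each array 0 to 4. The cause of these shifts was not tested. Leaving out arrays or fitting 6 of them leaves fewer samples, and without EB 1 the count for EB at PND 100 rose to 2704. Of the 118 named genes that were called, 32 stayed called with normexp, 83 with the replicate block, 118 with the slide block and 2 without EB 3. Genes at background in 1 group limit the fold that can be given.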

Other observations

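Cholesterol and fatty acid synthesis genes had a median log2 ratio of -0.40, with 30 of 35 below 0 and none called (limma, 5 at an unadjusted p under 0.05). Genes of nerve and ganglion (30), skeletal muscle (17) and urothelium (12) were not called either (limma, 2, 0 and 3 at an unadjusted p under 0.05). The skeletal muscle list varied widely within both groups. Its median over the control mean was -1.01, 1.24 and -1.43 on EB 1, 2 and 3 and 1.35, 1.94 and -2.92 on the controls. Whether the samples held differing amounts of muscle was not tested. The male germ cell and epididymis list had a median of 1.19 at PND 100 and -3.92 at PND 145, where 8 of 18 genes fell. At PND 100 only 1 of the 18 genes was well above background on all 6 arrays. Its PND 100 median was 1.25 with bounds but 0.195 with normexp, so this list lies mostly near background.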
